A study of Rattus norvegicus with 6 samples.

Results

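The voltage-gated and potassium channel genes on the array were taken as every gene whose symbol belongs to the potassium (Kcn), sodium (Scn), calcium (Cacn) or ClC chloride (Clcn) channel families and whose probe set carries that symbol alone. The rule found 118 genes with 190 probe sets, out of 14217 named genes with 20826 such probe sets. Each gene is represented by the probe set of highest mean log2 signal over the 6 arrays, for 73 genes the only one. RK3E is a line of rat kidney cells, and the study compared cells transformed by the Hedgehog pathway transcription factor GLI1 with control RK3E cells and set the resulting genes beside desmoplastic medulloblastoma. The 4 GLI1 arrays came from cells transfected with a GLI1 expression construct and grown from individual transformed foci. Of these, 1 array names no clone, 1 is clone I and 2 are clone II. The 2 control arrays came from parental RK3E cells, and the labels describe no cells given an empty construct. All cells were kept in serum-containing medium. The labels call the arrays biological replicates without saying how cultures were kept separate, so the p-values cover the spread among these arrays alone.

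Voltage-gated channels open a pore when the membrane depolarises: sodium channels start action potentials, calcium channels admit the calcium that drives contraction and secretion, and potassium channels return the membrane to rest. Inward rectifier and tandem-pore potassium channels set the resting potential, and renal epithelium uses them together with ClC proteins to move salt and water. Pore subunits work with auxiliary subunits that change their gating or their delivery to the membrane.

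Gli1 itself separated the groups as labelled, with log2 signals of 13.15, 11.71, 11.77 and 12.17 on the GLI1 arrays (no clone named, clone I, clone II replicates 1 and 2, the order used throughout) and 5.17 and 6.50 on the parental arrays. Median signal ran from 568 to 696 over the arrays. The ratio of the 3′ to the 5′ GAPDH control probe sets, a sign of RNA integrity, was 7.52 on clone II replicate 1 and 3.66 on parental replicate 1, against 1.39 to 2.09 on the others. Of 9 kidney epithelial markers, Krt8 (9.07 to 12.57) and Epcam (8.75 to 11.09) passed the signal filter, and the defining kidney cadherin Cdh16 was at 4.57 to 5.73 and dim on every array. Of 12 neuronal markers 6 were dim on all arrays and Map2 fell, of 9 muscle markers 5 were dim, and of 4 immune markers 3 were dim and Cd14 fell. Of 3 endothelial markers 2 were dim and Tek switched off, and of 5 glial markers 1 was dim; 0 of the first list and 1 of the second passed the filter. The median log2 signal of the kidney epithelial list ran from 6.90 to 7.92 on the GLI1 arrays and from 7.11 to 7.61 on the parental arrays, that of the neuronal list from 7.02 to 8.06 and from 7.16 to 7.24, and that of the muscle list from 6.36 to 8.01 and from 5.67 to 8.0. Their part in the channel results was not tested.

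Low signal was more frequent among the channel genes than among all named genes on these arrays. A log2 signal under 8.33 (a signal of 322), the 40th percentile of mean log2 signal over all probe sets, was called dim, and the same value was the filter for testing. On all 6 arrays 49 of the 118 members (41.5%) were dim, against 17.5% of all named genes. The count depends on the level: at the 30th percentile 20 members (16.9%) were dim, against 8.65% of named genes, and at the 50th 79 (66.9%), against 27.7%. At or above the dim level on all 6 arrays were 22 members (18.6%), against 65.4% of named genes. Of the other 47, 1 switched off with GLI1 and 46 lay above the level on 1 to 5 arrays without a full split by group. Among these 46 were Kcnk1, Kcnc4 and Scn4b, whose signals differed between the groups without overlap, as given below. Between 35 and 50 members were above the dim level on any single array, with 50, 42, 43 and 35 on the GLI1 arrays and 40 and 48 on the parental arrays, so the groups overlapped. A dim probe set is not evidence that the gene is silent, since probe sets differ in sensitivity. In these bulk samples, fewer cells with a transcript and less RNA per cell cannot be told apart.

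**Figure D1:**
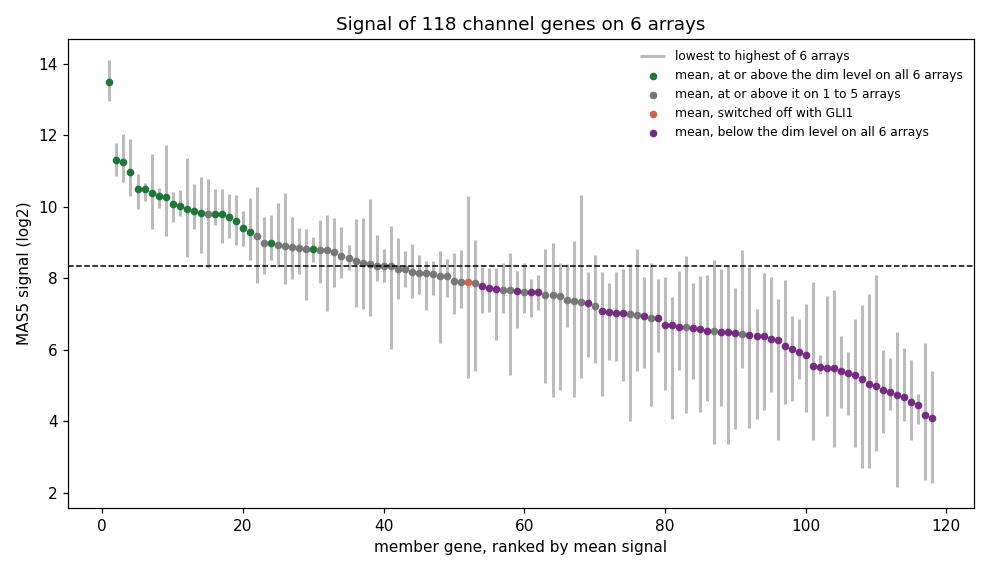
MAS5 signal (log2, y axis) of the 118 channel genes, ranked by mean signal (x axis); bars run from the lowest to the highest of 6 arrays, points are means and the dashed line is the dim level of 8.33. The 22 members above the line on every array lie among the higher ranks and the 49 dim members among the lower, with members of the other kind interleaved; ranks across genes also reflect probe sensitivity.

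The families differed in how many members were dim. Of the 9 sodium channel pore genes, 7 were dim on all arrays and 0 were above the dim level on all. Of the 31 voltage-gated potassium pore genes 13 were dim on all arrays and 2, Kcnd1 and Kcnh3, were above on all. Of the 15 inward rectifier genes 8 were dim and 3 (Kcnj6, Kcnj11, Kcnj14) were above on all. Of the 11 tandem-pore genes 4 were dim and 2 (Kcnk5, Kcnk6) were above on all. The 7 ClC genes were the other way round, with 1 dim and 4 (Clcn2, Clcn3, Clcn6, Clcn7) above on all. The 14 calcium channel auxiliary genes held 5 of each kind, those above on all being Cacna2d1, Cacnb1, Cacnb2, Cacnb3 and Cacng2, and of the 10 calcium pore genes 3 were dim and Cacna1c was above on all. Of the 13 potassium auxiliary genes 5 were dim and 3 (Kcne2, Kcnip3, Kcnmb4) above on all, of the 5 calcium- and sodium-activated potassium pore genes 2 were dim and Kcnt1 above on all, and of the 3 sodium beta genes 1 was dim and Scn3b above on all. These states hold for the brightest probe set of each gene. Of the 72 other probe sets of members, 9 passed the signal filter. The second probe sets of Cacnb1, Cacng2 and Kcnip3 had mean log2 signals of 5.50, 6.84 and 6.14. Those of Clcn3 had means of 10.50 to 13.37.

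**Figure D2:**
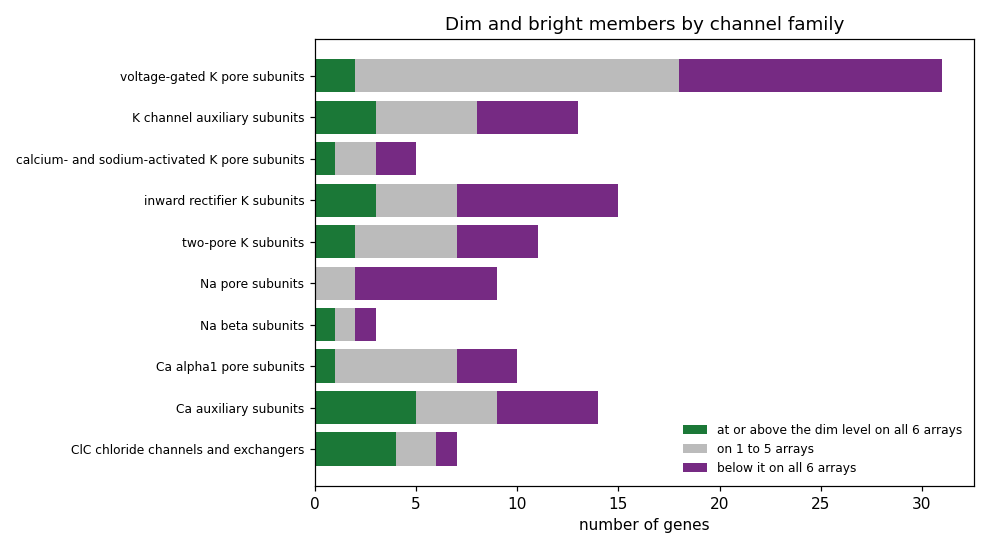
Number of genes (x axis) in each of the 10 channel families (y axis) that were at or above the dim level on all 6 arrays, on 1 to 5 arrays, or on none. Sodium pore genes had 7 of 9 dim on every array, and ClC genes had 1 of 7.

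RefSeq promoter windows (GRCr8; 250 bases before to 50 after the start) were matched by gene for 85 members, 10 of them with several windows and 96 windows in all. The windows of members dim on all arrays (42 windows) had a median GC content of 56% and a median observed over expected CpG ratio of 0.42, and those of members above on all arrays (20 windows) had 66.3% and 0.77. All 96 member windows had medians of 61.7% and 0.60, and the 13243 windows of genes named on the array had 59.7% and 0.70. To show this range, the windows of 4 members are printed 5′ to 3′ on the gene's strand with every CG in capitals: Kcnmb4 and Cacnb3, which fell and were above the dim level on every array; Cacna1c, which also fell and was above the dim level on every array but has few CG, unlike the median of that class; and Scn9a, a sodium pore gene dim on all arrays. They lie at chr7:54005052-54005351 (minus strand), chr7:131666301-131666600 (plus), chr4:154051699-154051998 (minus) and chr3:71701328-71701627 (minus), and hold 48, 44, 4 and 9 CG.
Kcnmb4: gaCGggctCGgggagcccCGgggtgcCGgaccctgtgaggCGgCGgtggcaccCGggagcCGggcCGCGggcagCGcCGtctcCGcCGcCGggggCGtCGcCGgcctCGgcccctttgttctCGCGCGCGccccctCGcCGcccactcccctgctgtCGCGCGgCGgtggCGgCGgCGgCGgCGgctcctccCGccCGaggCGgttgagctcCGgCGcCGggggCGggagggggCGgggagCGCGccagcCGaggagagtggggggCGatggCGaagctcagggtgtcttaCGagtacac
Cacnb3: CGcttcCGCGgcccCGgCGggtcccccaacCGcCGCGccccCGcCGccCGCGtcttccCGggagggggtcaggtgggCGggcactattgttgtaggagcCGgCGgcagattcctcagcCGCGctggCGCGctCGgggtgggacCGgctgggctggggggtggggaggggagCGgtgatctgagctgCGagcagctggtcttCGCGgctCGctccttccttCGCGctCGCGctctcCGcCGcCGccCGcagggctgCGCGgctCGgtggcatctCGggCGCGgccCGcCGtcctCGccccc
Cacna1c: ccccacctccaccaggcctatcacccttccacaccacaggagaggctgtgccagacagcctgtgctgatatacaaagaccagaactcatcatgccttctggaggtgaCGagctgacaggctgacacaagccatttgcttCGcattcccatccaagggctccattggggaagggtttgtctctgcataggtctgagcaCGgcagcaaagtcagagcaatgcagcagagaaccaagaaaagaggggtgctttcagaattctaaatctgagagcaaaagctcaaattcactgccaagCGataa
Scn9a: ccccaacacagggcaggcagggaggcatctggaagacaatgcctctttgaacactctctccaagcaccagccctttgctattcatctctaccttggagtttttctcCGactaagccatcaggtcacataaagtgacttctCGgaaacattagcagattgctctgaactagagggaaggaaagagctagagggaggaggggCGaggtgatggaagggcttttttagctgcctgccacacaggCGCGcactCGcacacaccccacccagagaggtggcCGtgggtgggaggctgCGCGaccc

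The GLI binding letters GACCACCCA, searched on both strands, were in 0 of the 96 member windows and in 0.385% of 33469 RefSeq windows. With the middle letter free (GACCNCCCA, which contains the first motif), 1 member window matched, in Kcnab1 (1.04% of member windows, 1.13% of all). The letters CAGCACC, part of the element bound by the neuronal gene repressor REST, were in 6 windows of 5 members, Cacng3, Kcnc2, Kcnh5, Kcnh6 and Kcnj6 (6.25%, against 6.78% of all windows). The 33469 RefSeq windows had a median GC content of 51.7% and a median CpG ratio of 0.39. Both are below those of member windows (61.7% and 0.60), so the shares are not matched for base composition. These are matches of letters in short windows and are no measure of binding.

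Between GLI1-transformed and parental cells, 1 channel gene rose and 6 fell among the 41 members that passed the signal filter (limma, adjusted p under 0.05 over 18625 probe sets). The filter was passed by 34.7% of members and by 72.0% of named genes. The risen share of 2.44% stood beside 7.80% of tested named genes, and the fallen share of 14.6% beside 7.75%. The filter keeps a gene that is bright in 1 group alone, as it did Scn4b, so these shares are a description of the tested members. The 6 that fell were spread over 6 families: a voltage-gated potassium pore (Kcnc4), a potassium auxiliary subunit (Kcnmb4), a calcium pore (Cacna1c), a calcium auxiliary subunit (Cacnb3), a sodium beta subunit (Scn4b) and a ClC exchanger (Clcn3). The median log2 difference of all members was -0.07, beside 0.05 for all named genes. Without a filter 2 of 118 members rose (1.69%, against 4.80% of named genes) and 4 fell (3.39%, against 5.25%).

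Kcnk1, a tandem-pore background potassium channel gene, was the member that rose. Its log2 signal was 10.77, 10.24, 10.45 and 10.39 on the GLI1 arrays and 8.69 and 8.28 on the parental arrays. Every GLI1 array was above both parental arrays. Group means came to 10.46 ± 0.22 (SD, n = 4) and 8.48 ± 0.30 (SD, n = 2), a 3.94-fold increase (log2 difference 1.98, SE 0.29, limma adjusted p = 0.00315). Without the arrays of highest GAPDH ratio, clone II replicate 1 and parental replicate 1, the difference was 2.19 with an adjusted p of 0.0556.

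The other tandem-pore genes tested did not pass. Kcnk5, an alkaline-activated channel of kidney epithelium, had signals of 11.46, 10.85, 10.34 and 10.25 against 10.05 and 9.39, without overlap, and a log2 difference of 1.0 (95% interval 0.14 to 1.87, limma adjusted p = 0.119). Kcnk6, a close relative of Kcnk1, had 11.71, 10.95, 9.22 and 9.19 against 10.30 and 10.25. Its parental values lay between those of clone II and those of the other GLI1 arrays. The difference of -0.01 (interval -1.53 to 1.51) therefore describes neither, and its sign turned under median centring (0.15) and quantile normalization (0.14). Another Kcnk6 probe set that passed the filter had 9.66, 8.80, 8.64 and 9.12 against 8.19 and 9.24. The difference there was 0.34 (limma adjusted p = 0.661), and the parental values did not lie between.

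Among voltage-gated potassium pores, Kcnc4, which encodes a fast-inactivating channel of the Shaw family, fell. Its log2 signals were 9.40, 8.42, 8.45 and 7.86 on the GLI1 arrays and 10.36 and 10.54 on the parental arrays, with no overlap. The means of 8.53 ± 0.64 (SD, n = 4) and 10.45 ± 0.13 (SD, n = 2) differed by -1.92 (SE 0.43, 3.77-fold, limma adjusted p = 0.0219). A second Kcnc4 probe set, below the filter, differed by -0.85 with overlapping groups (limma without the filter, adjusted p = 0.494).

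Kcns3, an electrically silent modulatory subunit, was the member that switched: above the dim level on both parental arrays and below it on all 4 GLI1 arrays. Its log2 signals were 5.21, 7.38, 7.37 and 7.60 against 10.29 and 9.52, means of 6.89 ± 1.13 (SD, n = 4) and 9.91 ± 0.54 (SD, n = 2). Its mean over all arrays, 7.90, lay under the filter, so it was not among the tested genes. In the fit without a filter the log2 difference was -3.02 (SE 0.76, interval -4.72 to -1.31, 8.09-fold, limma adjusted p = 0.0436), and the GLI1 values are so low that the fold depends on small signals (6.31-fold with 32 added to each signal). Of named genes 1.23% switched off in this way and 0.612% switched on; of members 0.847% switched off and 0 switched on. The count depends on the level used: at the 30th percentile (7.52) the switched-off member was Kcnk12 in place of Kcns3, and at the 50th (9.22) Kcnk1 switched on and Kcns3 and Scn4b switched off.

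**Figure D3:**
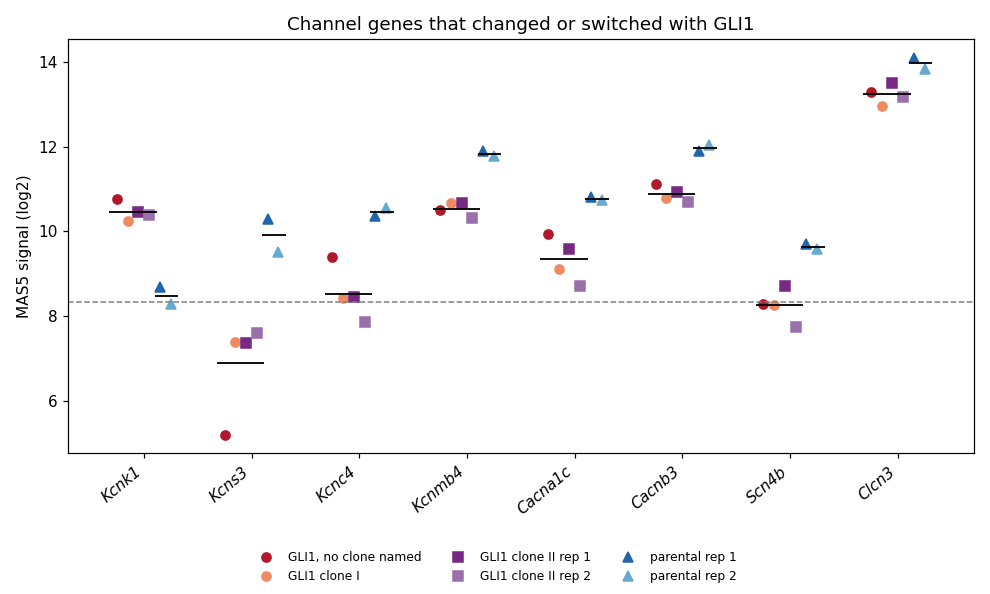
MAS5 signal (log2, y axis) on each array for the member that rose, the member that switched and the 6 that fell (x axis); symbols mark arrays, short lines are group means (4 GLI1, 2 parental arrays) and the dashed line is the dim level. The groups do not overlap for any of the 8 genes, and Kcns3 lies on opposite sides of the line.

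The remaining voltage-gated and activated potassium pores with large differences did not pass. Kcnt1, a sodium-activated channel, had 8.58, 10.40, 11.27 and 11.37 on the GLI1 arrays and 9.02 and 9.01 on the parental arrays, so the array without a clone name was the lowest of all 6. The log2 difference was 1.39 (interval -0.17 to 2.96, limma adjusted p = 0.221), and without that array 2.0 (adjusted p = 0.00674). Both other Kcnt1 probe sets passed the filter, and neither had that array lowest. The first had it at 7.93, above parental replicate 1 at 7.43 (difference 1.33, limma adjusted p = 0.201). The second had it highest of all 6, at 9.75 (difference 0.33, adjusted p = 0.609). Kcnq1, a slow delayed rectifier of heart and epithelia, had 10.21, 7.44, 7.36 and 6.94 against 8.88 and 9.54, with the same array the highest of all, and a difference of -1.22 (interval -3.12 to 0.68, adjusted p = 0.380). Kcna5, a Shaker-family channel, had 9.67, 9.38, 8.21 and 7.96 against 7.20 and 8.41, which overlapped, and a difference of 1.0 (interval -0.36 to 2.36, adjusted p = 0.315). Kcnd1 and Kcnh3, above the dim level on all arrays, differed by -0.26 (adjusted p = 0.548) and 0.14 (0.761); the sign of Kcnh3 turned without the arrays of highest GAPDH ratio (-0.14).

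Of the potassium auxiliary subunits, Kcnmb4, a beta subunit of the large-conductance calcium-activated channel, fell. Its log2 signals were 10.50, 10.67, 10.66 and 10.31 on the GLI1 arrays and 11.89 and 11.77 on the parental arrays, apart on every array. The means of 10.54 ± 0.17 (SD, n = 4) and 11.83 ± 0.08 (SD, n = 2) differed by -1.29 (SE 0.22, 2.45-fold, limma adjusted p = 0.00618). The pore gene of the same channel, Kcnma1, named after its values were seen, had 10.34, 7.78, 5.19 and 5.28 against 7.71 and 7.73 and was below the filter. Its GLI1 SD of 2.44 reflects a high array without a clone name and low clone II arrays. Kcnip3, a calcium-binding partner of Kv4 channels, differed by -0.02 (adjusted p = 0.979), a sign that turned under median centring (0.14) and quantile normalization (0.11).

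In the calcium channel family both the pore gene Cacna1c and the beta subunit gene Cacnb3, whose product carries pore subunits to the membrane, fell. Cacnb3 had log2 signals of 11.13, 10.78, 10.93 and 10.70 on the GLI1 arrays and 11.90 and 12.04 on the parental arrays, with means of 10.89 ± 0.19 (SD, n = 4) and 11.97 ± 0.10 (SD, n = 2). The difference was -1.09 (SE 0.21, 2.12-fold, limma adjusted p = 0.0121). Cacna1c, the pore of the L-type channel of heart and smooth muscle, had 9.94, 9.12, 9.58 and 8.72 against 10.82 and 10.73. Its means of 9.34 ± 0.53 (SD, n = 4) and 10.78 ± 0.06 (SD, n = 2) differed by -1.44 (SE 0.37, 2.71-fold, limma adjusted p = 0.0337), and without the filter the adjusted p was 0.0508. A second Cacna1c probe set, below the filter, differed by -1.63 with overlapping groups (limma without the filter, adjusted p = 0.458). On the probe sets used, neither gene's groups overlapped. The alpha2-delta gene Cacna2d1 differed by -0.47 (interval -1.07 to 0.13, adjusted p = 0.284).

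Scn4b, a sodium channel beta subunit, fell with the smallest margin. Its log2 signals were 8.29, 8.27, 8.72 and 7.74 against 9.69 and 9.59, so 3 of 4 GLI1 arrays were dim and the parental arrays were not. The means of 8.26 ± 0.40 (SD, n = 4) and 9.64 ± 0.07 (SD, n = 2) differed by -1.38 (SE 0.38, 2.61-fold, limma adjusted p = 0.0464). Its GLI1 mean lay under the filter of 8.33, so it was tested through its parental signal; of 8 tested members with 1 group mean under the filter it was the only one called. The call was lost without the filter (0.0955), with median centring (0.0657) and with quantile normalization (0.0567). Scn10a, a pore gene of sensory neurons, was the sole sodium pore gene tested. It had 9.20, 9.39, 8.97 and 8.97 against 7.39 and 8.97, and its difference of 0.95 (interval -0.10 to 2.0, adjusted p = 0.215) rests on 1 low parental array.

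Among the ClC genes, Clcn3, an endosomal chloride/proton exchanger, fell. Its log2 signals were 13.30, 12.95, 13.50 and 13.17 against 14.10 and 13.83, without overlap, and the means of 13.23 ± 0.23 (SD, n = 4) and 13.96 ± 0.19 (SD, n = 2) differed by -0.73 (SE 0.20, 1.66-fold, limma adjusted p = 0.0415). Of its other probe sets, 1 also fell (-0.82, adjusted p = 0.0323) and the others had differences of -0.75 (0.0622) and -0.35 (0.360). The call was lost without the filter (0.0548), with median centring (0.134) and without the intensity trend (0.0868). Clcn6, of late endosomes, differed by 0.31 (interval -0.33 to 0.95, adjusted p = 0.520).

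The calls of the 6 fallen genes rest on both parental arrays. With either one left out, 0 members fell by limma after adjustment and 6 were lower at an unadjusted p under 0.05. Without parental replicate 2 these were the same 6 genes, and without parental replicate 1 they were 5 of them, with Cacng2 in place of Clcn3. Over all probe sets the number that fell went from 1351 to 281 without parental replicate 1 and 417 without parental replicate 2, so calls were lost throughout the array. Without parental replicate 1 the log2 differences of Kcnmb4, Cacnb3, Kcnc4, Cacna1c, Clcn3 and Scn4b were -1.23, -1.16, -2.01, -1.40, -0.60 and -1.33, and without parental replicate 2 they were -1.35, -1.01, -1.82, -1.48, -0.87 and -1.43. Without the arrays of highest GAPDH ratio 0 members rose or fell by limma, with 2 and 6 at an unadjusted p under 0.05, and over all probe sets 158 rose and 168 fell, against 1087 and 1351 with every array. Leaving out clone I left 2 falls, Cacnb3 and Kcnmb4, and leaving out clone II replicate 2 left 4, with Clcn3 and Scn4b lost.

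**Figure D4:**
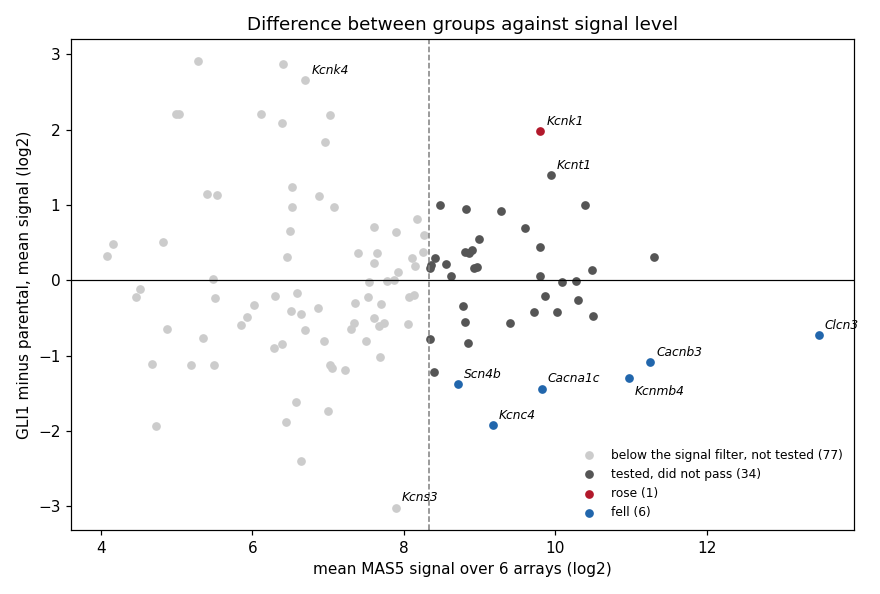
Difference in mean log2 signal, GLI1 minus parental (y axis), against mean log2 signal over 6 arrays (x axis) for the 118 members, coloured by call; the dashed line is the signal filter of 8.33. The 77 members left of the line were not tested and spread more widely than the 41 tested ones, of which 1 rose and 6 fell.

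Counted over all 118 members, 16 had every GLI1 array above both parental arrays and 16 every GLI1 array below them (13.6% each), against 19.0% and 17.6% of named genes. Of the 16 above, 8 were dim on all arrays, and of the 16 below, 3. Of these dim members, named after their values were seen, Kcnk4, a mechanosensitive tandem-pore gene, had 6.89, 8.03, 7.77 and 7.65 against 4.87 and 5.0 and passed without the filter (log2 difference 2.65, limma adjusted p = 0.0499). Scn9a, a pore gene of sensory neurons, had 6.41, 6.03, 6.86 and 5.70 against 3.42 and 3.26 and did not pass (2.91, adjusted p = 0.0595). With 32 added to each signal the differences shrank to 1.85 and 1.37.

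The GLI1 arrays differed among themselves. With clone II (2 arrays) set against the remaining GLI1 arrays (2 arrays), 0 of the 41 tested members passed in limma's 3-level fit, against 0.176% of named genes, and 8 (19.5%) had an unadjusted p under 0.05, against 10.3%. Kcnk6 came closest, with clone II lower by 2.12 on the log2 scale (log2 difference -2.12, limma adjusted p = 0.0748). Under median centring it passed (-1.99, adjusted p = 0.0419). The other Kcnk6 probe set that passed the filter had 9.66, 8.80, 8.64 and 9.12, with clone II replicate 2 above clone I. Cacna1g, a T-type calcium pore, had 10.39, 9.36, 7.83 and 8.57 (-1.68, limma adjusted p = 0.348) and Kcnt1 differed by 1.83 (adjusted p = 0.343). Of the other Kcnt1 probe sets, the first had 7.93, 9.14, 9.65 and 10.29. The second had 9.75, 8.90, 9.50 and 9.02, without this split. Kcnk5, Kcna5 and Kcnj8 were also lower in clone II, and Kcne2 and Clcn7 higher, at unadjusted p under 0.05. For Kcne2 another probe set that passed the filter had 9.50, 8.71, 8.57 and 9.07, not higher in clone II. The 3′ to 5′ GAPDH ratio of clone II replicate 1 was the highest of the 6 arrays. Krt8, a keratin of simple epithelia, had 12.06, 12.57, 9.07 and 9.23 against 10.08 and 10.40, and Epcam, an epithelial adhesion gene, had 11.09, 10.90, 9.23 and 8.75 against 8.77 and 8.92, both lower on the clone II arrays. The median of the 9 kidney epithelial markers was 7.92, 7.65, 6.90 and 6.99 on the GLI1 arrays. The part of the GAPDH ratio or of these markers in the clone differences was not tested.

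**Figure D5:**
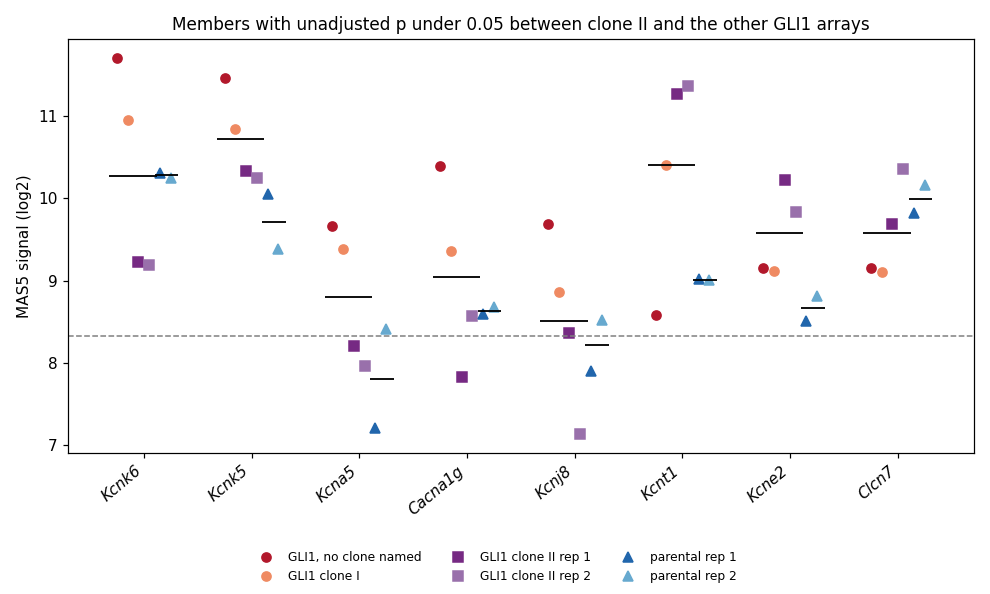
MAS5 signal (log2, y axis) on each array for the 8 tested members with an unadjusted p under 0.05 for clone II against the remaining GLI1 arrays (x axis); short lines are group means of 4 GLI1 and 2 parental arrays and the dashed line is the dim level. In Kcnk6 the parental arrays (10.30 and 10.25) lie between clone II (9.22 and 9.19) and the other GLI1 arrays (11.71 and 10.95). A second Kcnk6 probe set, not shown, did not split the arrays in this way.

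Other genes of ion transport give the setting. Of 56 on the array (pumps, exchangers, TRP and anoctamin channels, intracellular calcium channels), 38 passed the filter, 2 rose and 1 fell (5 and 8 at an unadjusted p under 0.05), and their median log2 difference was -0.23. Over all tested named genes 7.80% rose and 7.75% fell, shares that also stand beside the next list. The calcium-permeable channel gene Trpv4 rose 5.25-fold, from 10.08 and 10.12 on the parental arrays to 12.39, 12.00, 12.51 and 13.08 (log2 difference 2.39, SE 0.29, limma adjusted p = 0.00122). The calcium-activated chloride channel gene Ano1 rose 11.8-fold, from 7.87 and 7.82 to 12.44, 11.23, 11.97 and 10.00 (3.56, SE 0.58, adjusted p = 0.00528), and switched on. Itpr1, a calcium release channel of the endoplasmic reticulum, fell 2.66-fold (-1.41, SE 0.24, limma adjusted p = 0.00672). The calls of Ano1 and Itpr1 rest on both parental arrays. Without parental replicate 1 their log2 differences were 3.59 and -1.29, and without parental replicate 2 they were 3.54 and -1.53. Of 26 genes whose products act on channels, 17 passed the filter, 0 rose by limma after adjustment (2 higher and 3 lower at an unadjusted p under 0.05) and the kinase gene Sgk1, which regulates sodium and potassium channels, fell (-1.15, SE 0.25, adjusted p = 0.0189; 0.0551 with median centring).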

How the data were processed

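Expression was measured on 1-colour Affymetrix rat arrays with biotin-labelled cRNA, 4 from GLI1-transformed and 2 from parental RK3E cells. The authors deposited a linear intensity for each probe set on each array, computed with MAS5 per the submitters' processing notes. The MAS5 version and the genome build are not given in the sources used here. Each array holds 31099 probe sets; 57 controls were left out. Signals were floored at 1 before taking log2. Of 31042 probe sets, the 18625 with a mean log2 signal above the 40th percentile were tested with limma (version 3.58.1, R 4.3.3; lmFit, eBayes with an intensity trend), two-sided, and p-values were adjusted over all of them by Benjamini-Hochberg. "Rose" and "fell" mean an adjusted p under 0.05. Errors are SDs between arrays; the number of arrays limits the precision. The fit was tested on simulated data. Detection calls were not used.

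Gene names came from GEO's platform annotation; all 118 members matched GRCr8 genes by gene identifier, with 0 changed symbols. The members and lists were chosen with earlier results of these data known. Named were members that were called or switched, the 10 of highest mean signal, the 5 largest differences tested but not called, members called between clone II and other GLI1 arrays, and up to 4 called genes of each other list and direction; others are said to be named after their values were seen. Alternatives were other filters, an added 32, median or quantile scaling, no trend, a replicate block, averaged clone II arrays and arrays left out.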

Additional observations from a re-analysis of the deposited data

Results flagged for a closer look

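In 2 of the 19 named members with 4 GLI1 arrays, 1 array lay far from the other 3 relative to the group's range; chance gives this in about 1 in 20 groups. Both were the array without a clone name: Kcnq1, at 10.21 against 6.94 to 7.44 (gap 0.846 of the range), and Kcns3, at 5.21 against 7.37 to 7.60 (0.901).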

How the results depend on the processing

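Median centring moved the median log2 difference of the tested probe sets from 0.00 to 0.17. A filter at the 60th percentile left 9 members tested, and Kcnk1, Cacna1c, Kcnc4 and Scn4b were not among them. Members that rose numbered 1, and 2 without a filter, 0 with a filter at the 60th percentile, 0 without the 2 arrays of highest GAPDH ratio, and 1 to 2 with 1 array left out. Members that fell numbered 6, and 3 at the 60th percentile, 0 without those 2 arrays, and 0 to 7 with 1 array left out. With a replicate block 1 member rose and 6 fell, the same genes. The block covered every array, since the array without a clone name is number 1 and clone I is number 2. Deviations of the clone II and parental arrays of number 1 correlated at 0.32. These are also the 2 arrays of highest GAPDH ratio. The labels do not say that a number marks a shared culture or day. Other ion transport genes that rose numbered 0 without the 2 arrays and 1 to 3 with 1 array left out; those that fell numbered 2 without a filter, at the 60th percentile, with quantile normalization and with clone II arrays averaged, 0 without the 2 arrays, and 0 to 3 with 1 array left out. For clone II against the remaining GLI1 arrays, 1 member passed under median centring. Dim members numbered 20 at the 30th percentile and 79 at the 50th. Members switched on numbered 1 at the 50th percentile, 3 without the 2 arrays (for dim and switched counts chosen after the data were seen) and 0 to 2 with 1 array left out; those switched off numbered 2, 8 and 1 to 6. Signs turned for Kcnh3 (-0.14 without the 2 arrays; -0.10 to 0.38 with 1 array left out), Kcnk6 (0.15 median centring, 0.14 quantile, 0.34 averaged, 0.36 without the 2 arrays; -0.49 to 0.35) and Kcnip3 (0.14, 0.11, 0.014 averaged; -0.18 to 0.15). The cause was not tested.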

Other observations

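Of the lists of other ion transport genes and channel modulators, 3 genes, named after their values were seen, switched off with GLI1, as did 1.23% of all named genes. The sodium/calcium exchanger gene Slc8a1 had log2 signals of 6.75, 5.47, 8.32 and 3.35 on the GLI1 arrays and 10.74 and 11.05 on the parental arrays. Its difference was -4.92 (limma without the filter, adjusted p = 0.0334). The sodium channel modulator gene Fgf12 had 6.95, 7.03, 5.24 and 6.40 against 9.15 and 9.0 (-2.67, adjusted p = 0.0524). The plasma membrane calcium pump gene Atp2b4 had 8.32, 7.66, 6.74 and 8.15 against 8.59 and 9.07 (-1.12, adjusted p = 0.331), so that 1 GLI1 array lay just under the dim level.

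Several members are direct neighbours in the GRCr8 gene order, among them Scn1a, Scn9a and Scn7a, the pair Scn2b and Scn4b, and Kcna5, Kcna1 and Kcna6. Of the pair Scn2b and Scn4b, Scn4b fell and Scn2b was below the filter.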
